A study of Mus musculus with 14 samples.

Results

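The accessible chromatin of 4T1 cells was compared between 12 h and 24 h at 1% oxygen. Peaks of open chromatin listed at 24 h were set against those listed at 12 h, and a peak was called new at 24 h when it shared no base with any 12 h peak, left behind from 12 h when it shared no base with any 24 h peak, and shared otherwise. The 24 h list held 71656 peaks and the 12 h list 81732, or 153388 of the 463526 peaks in the 7 lists of the time course. Of these, 8727 peaks were new, 19503 were left behind, and 62929 peaks of the 24 h list were shared with 62229 of the 12 h list. The same comparison was made among the 20000 peaks of highest fold enrichment at each time.

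4T1 is a mouse mammary tumor cell line, and the samples were bulk ATAC-seq libraries of paraformaldehyde-fixed cells, a measurement in which the Tn5 transposase cuts open DNA and inserts sequencing adapters. The time course comprised a control labelled normoxia, called so throughout although its oxygen level could not be settled, and cells held at 1% oxygen for 6 h, 12 h, 24 h, 36 h, 48 h or 72 h, with 2 samples per time, and no genetic change or drug was added. Each peak list was called on its 2 samples pooled, so the 12 h and 24 h lists each stand for 2 samples with no value per sample. No replicate error or test between times could therefore be computed, and the intervals given are exact 95% binomial (Clopper-Pearson) intervals that cover counting error only.

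In hypoxia, the prolyl hydroxylases that mark HIF1A and EPAS1 (HIF2A) for destruction lose activity, and the stabilised alpha subunits pair with ARNT at hypoxia response elements. Their targets drive glucose uptake, glycolysis, acid export and blood vessel growth, and they include several enzymes that themselves need oxygen, such as the histone demethylase KDM3A. Open chromatin at promoters and enhancers is where such factors bind, and in many cells much of it carries AP-1 sites.

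Most epithelial marker promoters and few immune ones had a peak in these lists. Of 16 epithelial genes, 15 had a promoter peak at both times, Epcam, Cdh1 and Krt8 among them, whereas 8 of 10 immune markers, including Ptprc and Cd3e, had one at neither time. The 2 immune genes with a promoter peak at both times were Csf1r and Cd68. Of 9 fibroblast and endothelial markers, 3 had a promoter peak at both times, 5 at neither and Pecam1 at 12 h. Of 9 genes of mesenchymal transition, 7 had a promoter peak at both times. Over all protein-coding genes, 11541 of 22238 did, so a promoter peak alone is not specific to a cell type. The share of other cells in the culture was not tested.

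The lists differed in depth. The genome-wide background, in reads expected over a summit, was 2.34 at 12 h and 1.85 at 24 h, and ran from 0.926 to 3.25 over the 7 lists. The weakest summit called held 8 reads at 12 h and 7 at 24 h, and the median summit 25.0 and 21.0 reads. The peaks of the 12 h list covered 43.0 Mb and those of the 24 h list 36.6 Mb. The part of depth in the differences below was not tested.

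The strongest peaks without a partner at the other time are shown first. They are ranked by strength in their own list, which does not measure how far the lists differ at a site. Each sequence reaches 100 bases to either side of the summit, on the mm9 build, and strength is the deposited −log10 q value of the peak, the evidence that its reads exceed the local background. Capitals mark matches to any of the 17 motifs searched, such as AP-1 (TGANTCA), STAT (TTCNNNGAA), RUNX (TGTGGT), TEAD (GGAATG), an NFI element (TTGGCA), SP/KLF (GGGCGG) and HIF (ACGTG or GCGTG), each on both strands. Eef1a1, Agr3 and Tecrl were the genes nearest to the 3 strongest new peaks, and Phactr4, A630055G03Rik and Morc2a those nearest to the 3 strongest left-behind peaks.
Eef1a1, chr9:78328671-78328871, + strand: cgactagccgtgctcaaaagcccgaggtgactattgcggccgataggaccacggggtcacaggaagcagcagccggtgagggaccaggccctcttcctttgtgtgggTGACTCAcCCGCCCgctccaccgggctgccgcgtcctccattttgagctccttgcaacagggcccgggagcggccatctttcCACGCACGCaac
Agr3, chr12:36455461-36455661, + strand: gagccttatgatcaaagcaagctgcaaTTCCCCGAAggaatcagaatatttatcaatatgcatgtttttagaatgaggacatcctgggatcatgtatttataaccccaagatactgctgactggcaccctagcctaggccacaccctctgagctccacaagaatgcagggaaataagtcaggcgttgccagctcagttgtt
Tecrl, chr5:83116038-83116238, + strand: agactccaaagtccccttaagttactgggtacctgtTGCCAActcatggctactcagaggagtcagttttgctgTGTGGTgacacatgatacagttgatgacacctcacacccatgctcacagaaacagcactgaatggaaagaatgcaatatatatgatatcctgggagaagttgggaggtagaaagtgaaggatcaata
Phactr4, chr4:131945356-131945556, + strand: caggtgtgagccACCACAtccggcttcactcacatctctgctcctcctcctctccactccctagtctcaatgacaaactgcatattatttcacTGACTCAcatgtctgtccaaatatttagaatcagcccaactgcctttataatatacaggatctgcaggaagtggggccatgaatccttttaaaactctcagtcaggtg
A630055G03Rik, chr16:10846721-10846921, + strand: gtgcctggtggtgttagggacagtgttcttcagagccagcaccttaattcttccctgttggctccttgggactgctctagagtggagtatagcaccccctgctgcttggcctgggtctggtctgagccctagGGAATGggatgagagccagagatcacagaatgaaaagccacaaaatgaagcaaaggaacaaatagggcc
Morc2a, chr11:3522869-3523069, + strand: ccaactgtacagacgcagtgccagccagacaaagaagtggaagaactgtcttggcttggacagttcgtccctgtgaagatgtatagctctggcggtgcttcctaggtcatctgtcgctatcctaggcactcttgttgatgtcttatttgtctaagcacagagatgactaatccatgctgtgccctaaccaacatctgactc

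The strongest new peak lay in the first part of the Eef1a1 gene, 123 bp from an annotated start and inside an intron. Eef1a1 encodes a translation elongation factor used by every cell. Its peak had a −log10 q of 29.9 and 97 reads at the summit over a local background of 21.4 reads, and was also called at 36, 48 and 72 h with −log10 q of 28.3, 25.5 and 15.8. It was not called in normoxia, at 6 h or at 12 h. A 12 h peak with −log10 q of 70.2 lay 142 bp away, so the new peak stood beside a site that was open at 12 h. Its sequence held 1 AP-1 match, which began 7 bp past the summit.

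The second new peak, 196646 bp from the start of Agr3, a secreted relative of a disulfide isomerase, stood alone. It had a −log10 q of 21.4 with 28 reads, and the nearest 12 h peak was 9621 bp away. It was weaker at 36 h (6.42) and 48 h (10.1) and was absent from the normoxia, 6 h and 72 h lists. Its sequence held 1 STAT match and none to the other 16 motifs. It was the only one of the 20000 highest peaks at 24 h with no 12 h peak of any strength.

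The fifth new peak was intergenic, 90856 bp from the nearest start, which was that of Hif1a, the oxygen-regulated HIF subunit. It lay at chr12:74911010-74911829 with a −log10 q of 14.6 and 22 reads. It was called again at 48 h (5.05) and 72 h (4.19) but not at 36 h, in normoxia or at 6 h. The promoter peak of Hif1a itself was present in all 7 lists and had −log10 q of 73.4 at 12 h and 54.3 at 24 h. A nearest start is a position and does not identify the gene that a distal peak acts on.

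The other 7 of the 10 strongest new peaks had −log10 q between 13.6 and 16.2. Those nearest to Tecrl, 2810474O19Rik, Gm17506 (in an intron of Lama3), Ctxn3, Rai14 and Rnf146 were all called in normoxia, with −log10 q from 2.80 to 8.22. A 12 h peak of 8.47 lay 146 bp from the Tecrl peak. The peak 8486 bp from Cdk5r2, an activator of the neuronal kinase CDK5, was called at no earlier time and was listed with 4.80, 13.8 and 21.9 at 36, 48 and 72 h. Of the 10, 4 were absent from all 3 earlier lists, namely those of Eef1a1, Agr3, Hif1a and Cdk5r2.

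The strongest left-behind peaks were also called at other times. The first lay in an intron of Phactr4, a regulator of protein phosphatase 1 and actin, with −log10 q of 42.7 and 48 reads at 12 h. It had no overlapping peak at 24 h, yet it was listed at 12.9 in normoxia, 3.54 at 6 h, and 7.27, 6.62 and 7.31 at 36, 48 and 72 h. The 24 h list was thus the single list of the 7 without it. The same held for the peaks of A630055G03Rik (28.4 at 12 h), Morc2a (26.7), Olfr161 (25.5) and Zfp661 (22.5). None of the 10 strongest new peaks was missing at 12 h alone. All 10 left-behind peaks were called in at least 2 other lists, as were the new ones apart from Rnf146, called in normoxia alone. The Phactr4 sequence held an AP-1 match ending 1 bp before the summit, and the Morc2a sequence held none of the 17 motifs.

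**Figure D1:**
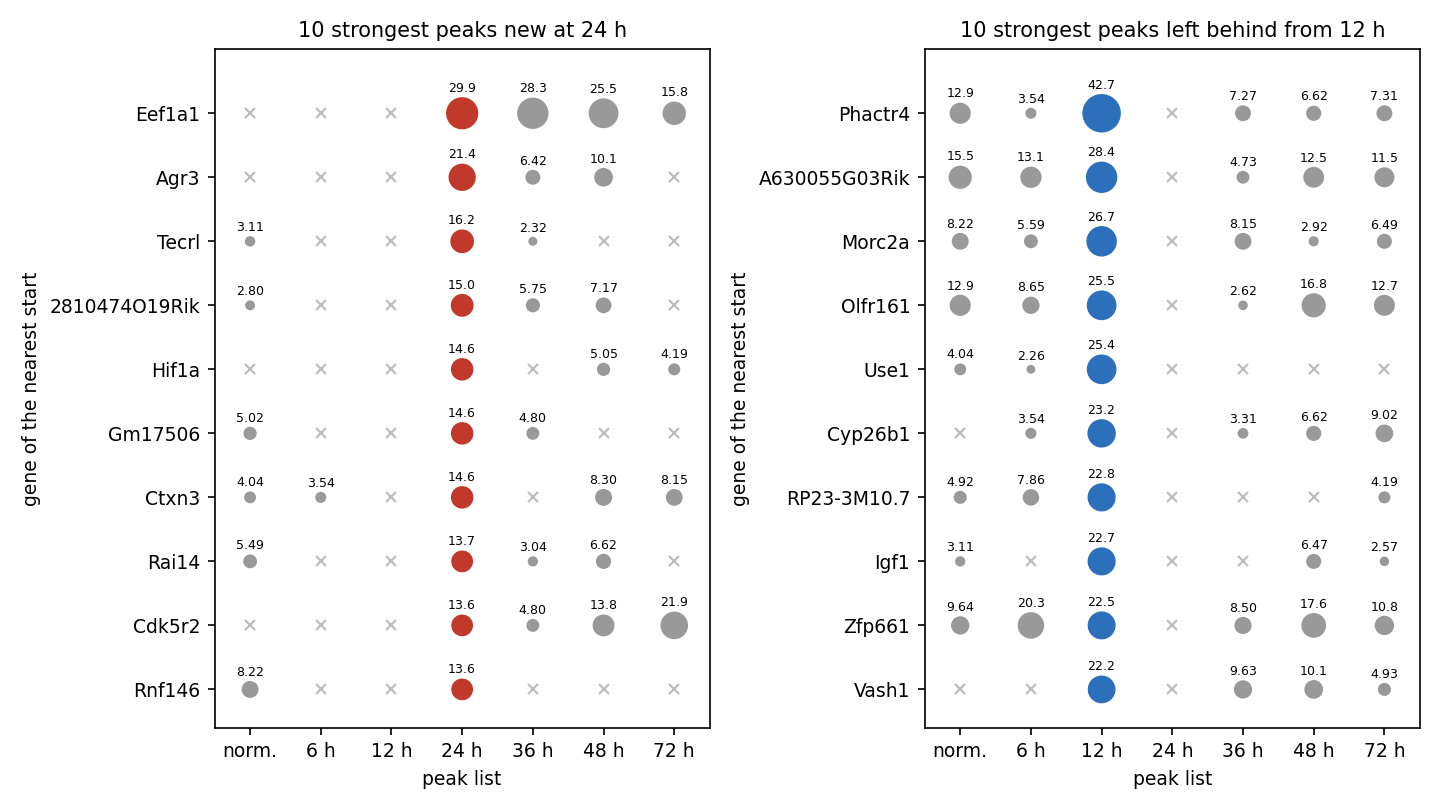
Strength (−log10 q, printed above each dot, with dot area growing with it) of the 10 strongest peaks new at 24 h (left, red at 24 h) and the 10 strongest left behind from 12 h (right, blue at 12 h) in each of the 7 peak lists, by the gene of the nearest start. Crosses mark lists with no overlapping peak, and the Phactr4, A630055G03Rik, Morc2a, Olfr161 and Zfp661 peaks have a cross at 24 h alone.

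Among the strong left-behind peaks, the promoter peak of Zfp661, a zinc finger gene, lay 43 bp from its start and is the single promoter among the 10. The Use1 peak, in an intron of the myosin gene Myo9b, was listed at 25.4 at 12 h, 4.04 in normoxia and 2.26 at 6 h, and at no later time. The peak nearest to Vash1, a gene of an angiogenesis inhibitor, was called at 12 h (22.2) and again at 36, 48 and 72 h (9.63, 10.1 and 4.93), but not in normoxia or at 6 h. The peak nearest to Igf1, the growth factor gene, lay 107706 bp from its start and was listed at 22.7 at 12 h, 3.11 in normoxia, 6.47 at 48 h and 2.57 at 72 h.

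Over the full lists, new peaks made up 12.2% of the 24 h list (95% interval 11.9 to 12.4), and left-behind peaks 23.9% of the 12 h list (23.6 to 24.2). Among the 20000 highest peaks of each list the shares were 18% (3597 peaks, 17.5 to 18.5) at 24 h and 18% (3596 peaks, 17.4 to 18.5) at 12 h. With lists of equal length and nearly one-to-one overlap, these counts are bound to be close, so they say nothing on the imbalance of the full lists. Nearly all peaks that entered or left the top 20000 had a weaker partner at the other time: 1 of the 24 h peaks and 22 of the 12 h peaks had none. The edge of the top lists fell at a fold enrichment of 8.7896 at 12 h and 8.4332 at 24 h, both for the last peak inside and the first outside. When the 12 h list was cut to the length of the 24 h list by −log10 q, an alternative chosen after seeing the data, 16.2% of 24 h peaks were new and 17.3% of 12 h peaks were left behind.

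The other steps of the time course set these shares in context. From 6 to 12 h, from the shortest list to the longest, 44.8% of the later peaks were new and 5.25% of the earlier ones were left behind. From 24 to 36 h and from 48 to 72 h, where the later list was again the shorter, 13.8% and 13.1% of the later peaks were new and 25.3% and 26.0% of the earlier ones were left behind. From 36 to 48 h, where the later list was the longer, the shares were 26.6% new and 12.0% left behind. Among the top 20000, the 18% of the step from 12 to 24 h was the lowest of the 5 steps, the others being between 18.6% and 25.6%. Whether that order exceeds replicate error was not tested.

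Peaks without a partner were weak peaks. Of the 24 h peaks with −log10 q under 2, 53.2% were new, and this share fell to 32.2% between 2 and 5, 8.95% between 5 and 10, 0.612% between 10 and 20 and 0.00887% (2 of 22536 peaks) from 20 up. The 12 h peaks followed the same course at higher shares, from 76.5% left behind under 2 through 60.9%, 30.9% and 5.27% to 0.0812% (23 of 28308). At each strength the 12 h share was the higher and the intervals did not overlap. New peaks had a median −log10 q of 3.38 and 10.0 summit reads, against 12.6 and 24.0 for shared 24 h peaks. Left-behind peaks had 3.96 and 13.0 reads, against 17.7 and 33.0 for shared 12 h peaks.

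**Figure D2:**
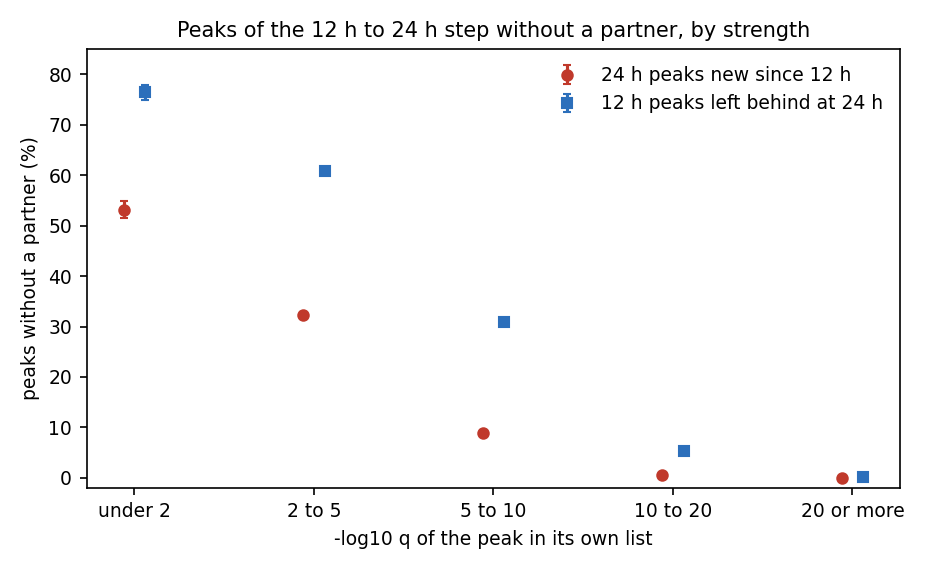
Share of peaks without a partner at the other time (percent, y axis) by the −log10 q of the peak in its own list (x axis), for 24 h peaks new at 24 h and 12 h peaks left behind. Bars are exact 95% binomial intervals, and the shares fall from 53.2% and 76.5% in the weakest class to 0.00887% and 0.0812% in the strongest.

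Peaks without a partner were also narrow. Their median width was 247 bp when new and 271 bp when left behind, against 489 and 540 bp for the shared peaks of their lists. Several summits in 1 peak were found in 0.390% of new, 1.29% of left-behind and 11.2% of shared 24 h peaks. The nearest peak of the other list lay a median of 8066 bp from a new and 8076 bp from a left-behind peak, and 8.97% and 8.18% lay within 500 bp of one, as the Eef1a1 peak did. By chromosome, new peaks ranged from 9.56% on chromosome 11 to 13.9% on chromosome 3, and left-behind peaks from 20.3% on X to 25.6% on chromosome 9, leaving aside Y with 6 peaks per list.

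New and left-behind peaks lay away from promoters. A promoter here reaches 1 kb to either side of a transcript start of a protein-coding gene. Of new peaks 6.39% (5.89 to 6.93) touched a promoter and of left-behind peaks 7.64% (7.28 to 8.03), against 20.4% and 20.2% of the shared peaks. The gap was smaller between peaks of like strength. At −log10 q between 2 and 5, 6.84% of new and 11.2% of shared 24 h peaks touched a promoter, and 7.55% of left-behind and 8.81% of shared 12 h peaks did. Intergenic positions held 51.4% of new and 48.5% of left-behind peaks, introns 37.3% and 38.7%, and 41.2% and 34.6% of summits lay over 50 kb from a start, against 30.6% of shared 24 h summits.

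Base composition differed in the same order. The median GC content around the summit was 45.8% in new, 47.3% in left-behind and 49.3% in shared peaks of either list. New peaks held a median of 2 CpG dinucleotides and shared peaks 3, and the upper 5% of shared peaks held 22 or more against 7 in new and 8 in left-behind peaks.

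Many of the peaks without a partner were seen at other times. Of new peaks, 49.9% (48.9 to 51.0) overlapped a peak in at least 1 of the 5 other lists, and of left-behind peaks 56.0% (55.3 to 56.7), whereas 96.6% of shared 24 h peaks did. New peaks were found more often in later lists (19.5%, 32.6% and 21.0% at 36, 48 and 72 h) than in normoxia (13.1%) or at 6 h (4.71%). Left-behind peaks were found again at 36, 48 and 72 h in 18.9%, 35.0% and 23.9%, and in normoxia and at 6 h in 21.1% and 11.0%. The lists differ in length, the 6 h list being the shortest (49006 peaks) and the 48 h list the longest of the 5 (74284). The normoxia list held 60070 peaks and the 36 h list 62695. The part of list length was not tested.

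A lasting gain was rare among new peaks, and the pattern used for it was rare in every set. At 36, 48 and 72 h but neither in normoxia nor at 6 h, 412 new peaks were called, or 4.72% (4.29 to 5.19). For a new peak, this is the order of times in which a site opens at 24 h and stays open. The same pattern in the 5 other lists was found in 3.76% of shared 24 h peaks and 2.99% of left-behind peaks. Of left-behind peaks, 47.8% returned at 36, 48 or 72 h, and 44.8% of new peaks were called at 1 or more of these times. Absent at 24 h alone and present in all 6 other lists were 289 left-behind peaks, or 1.48% of them. The counterpart, new peaks absent at 12 h alone, numbered 45, or 0.516%. Stronger peaks were found more often elsewhere: in any other list, from 33.1% of new peaks with −log10 q under 2 to 89.5% between 10 and 20, and from 38.3% of left-behind peaks to 91.7% over the same classes.

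**Figure D3:**
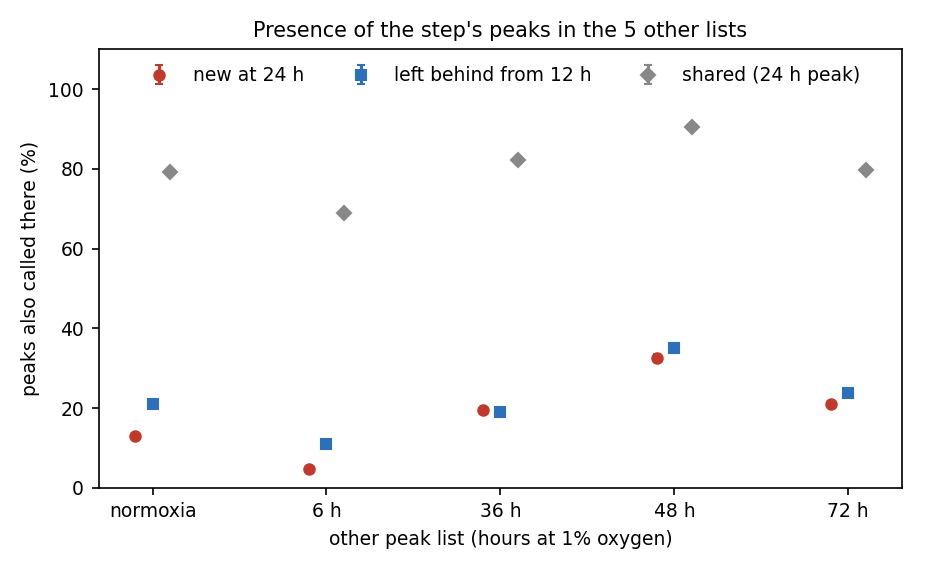
Share of new, left-behind and shared peaks (percent, y axis) that overlap a peak in each of the 5 other lists (x axis), with exact 95% binomial intervals. Shared peaks are found in 69.0% to 90.6%, new peaks in 4.71% to 32.6% and left-behind peaks in 11.0% to 35.0%.

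Counted by gene, promoters stayed as they were. A promoter peak was present at both times for 11541 of 22238 protein-coding genes and at neither for 9962, while 177 (0.796%) had one at 24 h only and 558 (2.51%) at 12 h only. A peak that crosses the 1 kb border at 1 time and stops short of it at the other accounted for 11 of the 177 and 28 of the 558. Of the genes with a 24 h only promoter peak, 118 had one in another list, as did 377 of those with a 12 h only peak. At 36, 48 and 72 h, 28 and 87 of them had one.

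Few of these genes were missing in a single list. At 12 h alone the promoter peak was missing for Ano1, a calcium-activated chloride channel, Cxcr4, the receptor of the chemokine CXCL12, and Spp1, the secreted protein osteopontin, which are named here after their values were seen. The Spp1 peak had −log10 q of 9.29 in normoxia, 9.47 at 6 h, 7.49 at 24 h, and 6.87, 11.9 and 8.91 at 36, 48 and 72 h. The Cxcr4 peak was listed at 1.43 in normoxia, 2.79 at 6 h, 2.49 at 24 h and 5.91, 7.95 and 8.26 thereafter. At 24 h alone a promoter peak was missing for 35 genes, and in 2 of them, Prr7 and Zscan10, the 12 h peak overlapped a 24 h peak outside the window. The highest at 12 h among the other 33 were Anxa4 (18.8), Ubl7 (17.7), Trmt61a (17.2) and Wdr55 (17.2), which code for an annexin, a ubiquitin-like protein, a subunit of a tRNA methyltransferase and a WD repeat protein.

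Genes of the hypoxia response and genes outside it, such as clock, cell cycle and cell marker genes, were examined in 19 lists. The lists covered pathways, transcription factor families and cell markers, and the totals here are over all of them. Of 209 genes, 169 had a promoter peak at both times, 2 (0.957%) at 24 h only, 3 (1.44%) at 12 h only and 35 at neither. Over all genes the shares were 0.796% and 2.51%. The 2 genes with a 24 h only promoter peak were Epas1 and Slc2a3, and the 3 with a 12 h only peak were Il1a, Pitx1 and Pecam1. Below are the summit sequences of promoter peaks without a partner at genes of HIF biology, chosen because the hypoxia response element can be looked for in them. The first 5 were new at 24 h and the last was left behind from 12 h. They are a part of such peaks: the new ones at Pgam1, Mcl1 and Tet3 and most left-behind ones are not shown. The Vegfa peak shown held the most HIF matches of the left-behind ones, and those at Hk2, Pfkfb4, Pgf and Kdm4b held none.
Epas1, chr17:87152747-87152947, + strand: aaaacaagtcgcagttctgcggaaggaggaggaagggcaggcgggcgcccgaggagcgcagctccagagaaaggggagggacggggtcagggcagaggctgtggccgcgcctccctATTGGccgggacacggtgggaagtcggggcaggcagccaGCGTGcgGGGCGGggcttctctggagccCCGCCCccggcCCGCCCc
Slc2a3, chr6:122751337-122751537, + strand: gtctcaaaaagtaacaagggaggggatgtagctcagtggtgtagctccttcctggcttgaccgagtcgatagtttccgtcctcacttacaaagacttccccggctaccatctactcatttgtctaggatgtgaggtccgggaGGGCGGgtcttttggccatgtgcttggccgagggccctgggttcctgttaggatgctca
Pgk1, chrX:103383168-103383368, + strand: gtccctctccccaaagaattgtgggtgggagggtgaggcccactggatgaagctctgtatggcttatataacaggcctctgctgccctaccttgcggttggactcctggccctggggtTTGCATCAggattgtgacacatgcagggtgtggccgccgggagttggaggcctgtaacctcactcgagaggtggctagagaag
Car9, chr4:43521642-43521842, + strand: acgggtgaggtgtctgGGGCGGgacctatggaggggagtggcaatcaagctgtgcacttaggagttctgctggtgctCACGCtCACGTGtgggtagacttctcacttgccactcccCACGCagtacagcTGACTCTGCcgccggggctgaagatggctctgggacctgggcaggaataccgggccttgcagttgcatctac
Kdm3a, chr6:71559044-71559244, + strand: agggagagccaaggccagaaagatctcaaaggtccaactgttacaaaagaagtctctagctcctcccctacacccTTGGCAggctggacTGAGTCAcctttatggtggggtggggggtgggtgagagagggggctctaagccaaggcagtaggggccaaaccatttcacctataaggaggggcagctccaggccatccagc
Vegfa, chr17:46167901-46168101, + strand: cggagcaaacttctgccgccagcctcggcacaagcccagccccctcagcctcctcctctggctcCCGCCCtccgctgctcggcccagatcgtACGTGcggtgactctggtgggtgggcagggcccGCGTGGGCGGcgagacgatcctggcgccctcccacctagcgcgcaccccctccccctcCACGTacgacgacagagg

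Epas1, which encodes HIF2A, gained a peak 400 bp upstream of its start. At 24 h it had −log10 q of 5.82 and 13 reads, and it was also listed at 6 h (2.64) and 36 h (2.41) but not in normoxia or at 12, 48 or 72 h. The nearest 12 h peak was 15907 bp away. The sequence held 1 HIF, 1 NFY (CCAAT) and 3 SP/KLF matches, all past the summit. The site was weak at each time it was called. Of the other subunit genes, Hif1a, Hif3a and Arnt had a promoter peak at both times and Arnt2 at neither.

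Slc2a3, the glucose transporter GLUT3, had a peak 221 bp from its start, inside an intron, with −log10 q of 3.47 and 14 reads at 24 h. It was listed again at 48 h (3.62) and 72 h (5.32), and at no time before 24 h. It holds no HIF match in this window. With promoters taken as 5 kb, Slc2a3 had a peak at both times, since a 12 h peak of 27.5 lay 2833 bp away. The other 19 genes of glucose uptake and glycolysis all had a promoter peak at both times.

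Pgk1, a glycolytic kinase and HIF target, showed an added site within an open promoter. Its new peak, 766 bp from the start, had −log10 q of 3.60 with 33 reads at 24 h and 5.19, 9.80 and 7.53 at 36, 48 and 72 h, and was in none of the 3 earlier lists. The main Pgk1 promoter peak lay 407 bp away and had −log10 q of 71.4 at 12 h. The sequence held a composite CEBP-ATF match (TGATGNAA) and no HIF match. Pgam1 and Mcl1 likewise had new peaks of 4.38 and 2.99 beside promoter peaks of 49.9 and 27.7 at 12 h, and neither was called at 72 h.

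Car9, carbonic anhydrase IX, a membrane enzyme of acid handling and a widely used marker of hypoxia, had a different promoter peak at each time. At 12 h a peak of 6.30 (15 reads) lay 9 bp from its first start and had no partner at 24 h, whereas at 24 h a peak of 4.16 (11 reads) lay at an internal start, 1530 bp from it. The first was called again at 36, 48 and 72 h with 1.97, 7.25 and 6.38, and the second with 2.57, 4.28 and 10.7. A further 12 h peak between them, of 1.35 (8 reads), was in no other list. Neither of the first pair was called in normoxia or at 6 h. The internal sequence held 4 HIF matches, 2 of them the overlapping letters of 1 palindrome, and 1 antioxidant element (TGACNNNGC).

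Kdm3a, an oxygen-dependent H3K9 demethylase, gained an intronic peak 103 bp from an annotated start. Its −log10 q was 4.10 at 24 h (12 reads), then 2.62, 19.1 and 14.9 at 36, 48 and 72 h, and it was in none of the 3 earlier lists. The latest lists, 48 h and 72 h, held it at higher strength than 24 h did. The nearest 12 h peak was 17385 bp away, and the strongest promoter peak of Kdm3a was listed at both times, at 79.6 and 76.2. The sequence held an AP-1 match 5 to 11 bp before the summit and an NFI element. Tet3, another oxygen-dependent demethylase, which acts on DNA, had a new peak of 2.16 seen in no other list, and Kdm4b lost one of 6.21 that was listed in normoxia (4.04) and at 72 h (8.69).

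Promoters of angiogenic genes held 6 left-behind peaks and no new one, where all promoters together held 1491 left-behind and 558 new peaks. These counts are small and no share of the promoter peaks of this list was computed. Among all peaks nearest to these genes, 18 of 142 (12.7%) were new and 42 of 164 (25.6%) were left behind. Both shares lay near the 12.2% and 23.9% of all peaks. Vegfa, the vascular endothelial growth factor, had a pair of left-behind peaks, of 4.59 (18 reads) and 2.30 (14 reads), that were called at 12 h and in none of the other 6 lists. The intronic one, whose sequence is given above, held 3 HIF matches. Angptl4, a lipoprotein lipase inhibitor, lost peaks of 9.63 and 4.02, the stronger being also listed in normoxia (4.81). Pgf and Angpt1 lost peaks of 4.71 and 5.25 that both returned at 72 h. Vegfa, Angptl4, Pgf and Angpt1 kept another promoter peak at 24 h, and none of the 13 genes of this list had a promoter peak at 1 time only.

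Outside HIF biology, the 12 h only promoter peaks were as follows. Il1a, the interleukin 1 alpha gene, had a peak of 3.96 at 12 h and 7.11 in normoxia, and in no other list. Pitx1, a homeobox factor, had peaks of 4.71 and 1.94 at 12 h, the stronger called again at 48 h (3.60). That stronger peak lay at an internal start, 4800 bp from the 5' end of the gene. Pecam1, an endothelial adhesion molecule, had an intronic peak of 10.7 that was also listed at 6 h (7.08) and 48 h (2.28). Its summit lay 1068 bp from an internal start and 36750 bp from the 5' end of the gene. Epcam, the epithelial adhesion molecule, lost a peak of 5.19 beside its kept promoter peak. The lost site was called again at 36 h and 72 h, with 16 and 21 summit reads. The strongest Epcam promoter peak held 43 and 34 reads in those lists. At 48 h the peak that overlapped this site, of 19.1, had the values of the strongest Epcam promoter peak, so it was not a separate site in that list.

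Further left-behind peaks lay at genes that kept another promoter peak, though not always at the same start. The nearest 24 h peak was 4654 bp from the Hif3a peak and 29507 bp from the Top2a peak, so these lay at other annotated starts. In the HIF and glycolysis lists they were at Hif3a, the inhibitory HIF subunit (2.57), at Hk2, a hexokinase (4.16 with 33 reads, 541 bp from a 24 h peak of 85.9), and at Pfkfb4, a regulator of glycolysis (3.04). In the cell cycle list they were at Cdk1, the mitotic kinase (4.47), Top2a, a topoisomerase of dividing cells (5.49), and Cdkn1a, the inhibitor p21 (4.47). The Top2a site was in none of the other 6 lists, and the Cdk1 site was listed once more, at 48 h (3.49). In the clock list Per1 lost a peak of 5.28 that was also called in normoxia and at 36 h and 48 h, and Dbp one of 2.16 seen at 12 h alone. Tjp1, a tight junction gene, lost one of 3.15, also seen at 12 h alone.

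New peaks inside open promoters were found at the epithelial gene Cdh1 (4.91) and at Vim, the intermediate filament of mesenchymal cells (2.95). The Cdh1 site was called in normoxia (6.98) and in no other list, and the Vim site at 36 h (3.82) and in no other list. Nfib, a nuclear factor I gene, had a pair of new peaks of 2.04 and 3.48. Among markers of fibroblasts, new peaks lay at Pdgfra (2.73) and Col1a2 (2.65), and a left-behind peak at Col1a1 (3.25) returned at 48 h and 72 h. All of these peaks had between 9 and 35 summit reads.

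When each peak was assigned to the gene with the nearest start, the lists differed in the share without a partner, though their counts were small. New peaks were 1 of 58 (1.72%, 0.0436 to 9.24) at the circadian clock genes, 3 of 72 (4.17%, 0.868 to 11.7) at the AP-1 subunit genes and 5 of 87 (5.75%, 1.89 to 12.9) at the glycolytic genes, against 12.2% of all peaks. The circadian and AP-1 intervals end below that level. Fibroblast and endothelial markers had 12 of 43 (27.9%, 15.3 to 43.7). Left-behind peaks ranged from 4 of 59 (6.78%, 1.88 to 16.5) at the mitophagy and survival genes, such as Bnip3 and Ddit4, to 11 of 26 (42.3%, 23.4 to 63.1) at the immune markers, against 23.9% of all. With 19 lists and no test, these are descriptions.

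The genes with the most new peaks were Btg1, with 13 of its 47 peaks at 24 h new (27.7%), Dlg2 (12 of 61, 19.7%) and Lphn3 (12 of 64, 18.8%). Mef2c (12 of 42, 28.6%), Rbms3 (12 of 28, 42.9%) and Rbfox1 (11 of 30, 36.7%) followed. Of all 24 h peaks, 12.2% were new. The genes with the most left-behind peaks were Lphn3 (23 of 72, 31.9%), Myc (21 of 100, 21.0%) and Cntn5 (18 of 42, 42.9%). Plxna2 (18 of 51, 35.3%), Thsd7b (18 of 44, 40.9%) and Camk1g (17 of 48, 35.4%) followed. Of all 12 h peaks, 23.9% were left behind, so the Myc share was below that of all peaks. A ranking by count favours genes with many peaks. Lphn3 is on both lists. Btg1, an antiproliferative gene, lost 4 of its 38 peaks at 12 h. Myc, the growth-promoting transcription factor, gained 7 of 85 at 24 h.

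Shared peaks changed little in height. In 59956 pairs that matched one to one, the ratio of fold enrichment at 24 h over 12 h had a median of 0.978, and after centring on it the log2 ratios had an SD of 0.353 over peaks. By 1.5-fold or more, 2244 pairs (3.74%) were higher at 24 h and 3891 (6.49%) lower. Pairs that were higher had a median of 14.0 summit reads at 12 h and 20.0 at 24 h, and those lower 27.0 and 12.0, against 33.0 and 24.0 for all. These are ratios of small counts without replicate error. Promoters made up 8.11% of the higher and 12.1% of the lower pairs, against 19.4% of all.

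**Figure D4:**
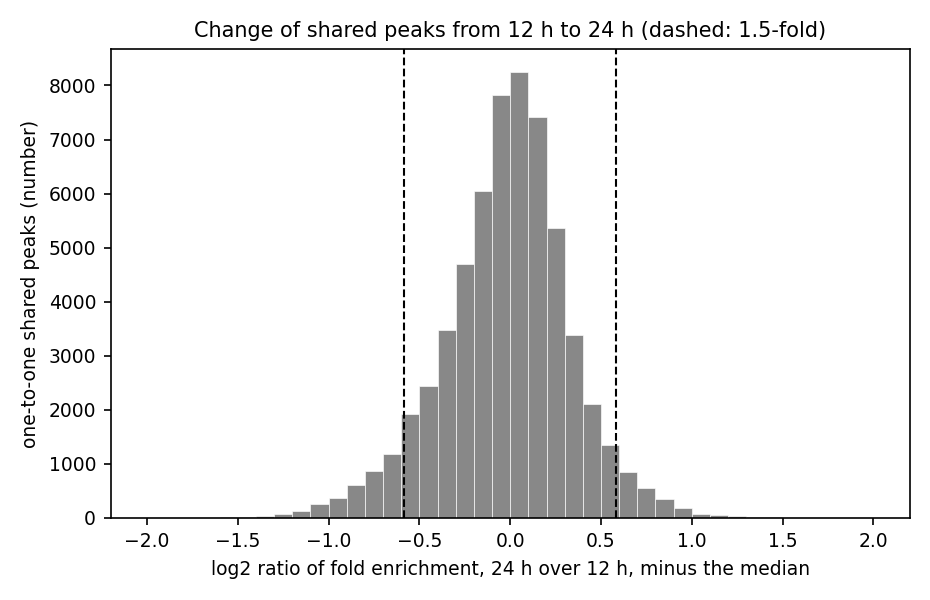
Number of one-to-one shared peaks (y axis) by the log2 ratio of their fold enrichment, 24 h over 12 h, after subtracting the median (x axis). Dashed lines mark 1.5-fold, beyond which lie 2244 pairs to the right and 3891 to the left of 59956.

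The largest rise, among pairs with at least 20 reads at either time, lay in a coding exon of Zscan10, a zinc finger factor of pluripotent cells, where reads went from 9 to 25 and fold enrichment from 2.99 to 9.14. The next 7 were nearest to 4732465J04Rik, Btbd3, Dock4, Zfp280c, Macrod2, Slc12a2 and 9330182L06Rik, with centred ratios from 3.05-fold down to 2.77-fold. None of these 8 reached its 24 h fold enrichment at 36, 48 or 72 h, and 4 were called in normoxia. They were chosen for their rise, so a lower level elsewhere is part of how they were picked.

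The largest falls were deeper. The first, 101531 bp from Rab11fip4, went from 34 to 7 reads, a 3.65-fold fall, and was back at 22 reads at 36 h and 25 at 48 h. An intronic peak of Dcst1 fell 3.48-fold and a peak 132 bp from the start of Ecm1, an extracellular matrix gene, 3.42-fold. The Ecm1 promoter peak held 40 and 9 reads at 12 h and 24 h, and 10, 31 and 25 reads over the 36, 48 and 72 h lists. The pairs at D8Ertd738e, Swap70, Nipal2, Atxn2 and Pacs1 fell between 3.06-fold and 3.15-fold. All 8 had a higher fold enrichment at 48 h than at 24 h, and the Atxn2 pair was not called at 72 h. They were chosen for their fall, so a higher level elsewhere is part of how they were picked.

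Few promoter peaks of the list genes passed 1.5-fold. Of 182 shared promoter peaks of list genes, 7 were 1.5-fold higher, 5 were 1.5-fold lower, and the median log2 ratio was 0.05. Over all 11603 shared promoter peaks, 1.57% were higher, 4.07% were lower and the median was 0.02. The 7 were at Angpt1, Dbp, Krt8, Esrp2, Sparc, Ccl2 and Foxp1. Dbp, a clock output gene, was the highest at 1.87-fold, from 17 to 21 reads. That was a weak Dbp peak, of −log10 q 1.94 at 12 h, and the strongest Dbp promoter peak had a log2 ratio of -0.02. The Esrp2 and Foxp1 peaks were also not the strongest at the promoters of their genes. The strongest ones there had log2 ratios of -0.16 and 0.26. The Ccl2 peak, at the gene of a monocyte chemokine, went from 26 to 40 reads (1.68-fold), and that of Sparc, a matrix protein, from 25 to 34 (1.74-fold).

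The 5 that were lower lay at Hif1an, Nqo1, Snai1, Tead1 and Nfib. Hif1an encodes the asparaginyl hydroxylase that blocks HIF activity in the presence of oxygen, and its promoter peak went from 49 to 23 reads, 1.69-fold lower. Of the other oxygen-sensing genes, Vhl, Egln1 and Egln3 had log2 ratios of -0.57, -0.41 and -0.16 and Egln2 one of 0.27, and none reached 1.5-fold. Nqo1, an NRF2 target, went from 39 to 15 reads and Snai1, a factor of epithelial to mesenchymal transition, from 63 to 24. Tead1, a YAP partner, went from 32 to 17. By list, the medians lay between -0.42 for acid handling, with 2 peaks, and 0.26 for CEBP factors, with 3. The 15 promoter peaks of AP-1 subunit genes had a median of 0.17.

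Sequence motifs were counted within 100 bp of each summit, on both strands. The AP-1 letters were in 31.1% (30.1 to 32.0) of new, 35.0% (34.3 to 35.7) of left-behind and 42.8% of shared 24 h peaks, and in 41.4% of all peaks at either time. The HIF letters were in 18.6% (17.8 to 19.4) of new and 19.4% (18.9 to 20.0) of left-behind peaks, against 26.1% of all 24 h and 25.2% of all 12 h peaks. SP/KLF and ETS (CCGGAAG) letters, frequent at promoters, were in 4.87% and 1.09% of new peaks and in 16.1% and 3.83% of shared 24 h peaks. The CTCF motif was in 3.27% of new and 3.89% of left-behind peaks, above the 2.30% of shared 24 h peaks. A match of letters is not evidence of binding, and matches of different motifs can overlap.

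Peaks closer in position and strength were also compared, by a cap on −log10 q that does not match strength below it. Among all 24 h peaks, 53.2% were new under 2 and 32.2% between 2 and 5, so new peaks leaned to the weaker end. Among peaks over 1 kb from a start with −log10 q under 5, HIF letters were in 17.3% (16.4 to 18.2) of new, 17.8% (17.1 to 18.4) of left-behind, 18.8% of shared 24 h and 17.8% of shared 12 h peaks. AP-1 letters remained less frequent in peaks without a partner, at 30.5% (29.4 to 31.6) of new and 33.7% (32.8 to 34.5) of left-behind, against 39.3% and 38.9% of shared peaks. Shared 24 h peaks over 1 kb from a start, of any strength, held them in 51.0%, and the part of strength in these gaps was not tested. RUNX letters were in 19.7% of new and 21.7% of shared 24 h peaks of this subset, against 19.6% and 19.9% before, so not every motif came closer. The order for CTCF turned, with 3.26% of new and 3.76% of left-behind against 4.25% and 5.19% of shared peaks. Left-behind peaks held AP-1 letters more often than new ones in all peaks and in this subset, and the intervals did not overlap.

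**Figure D5:**
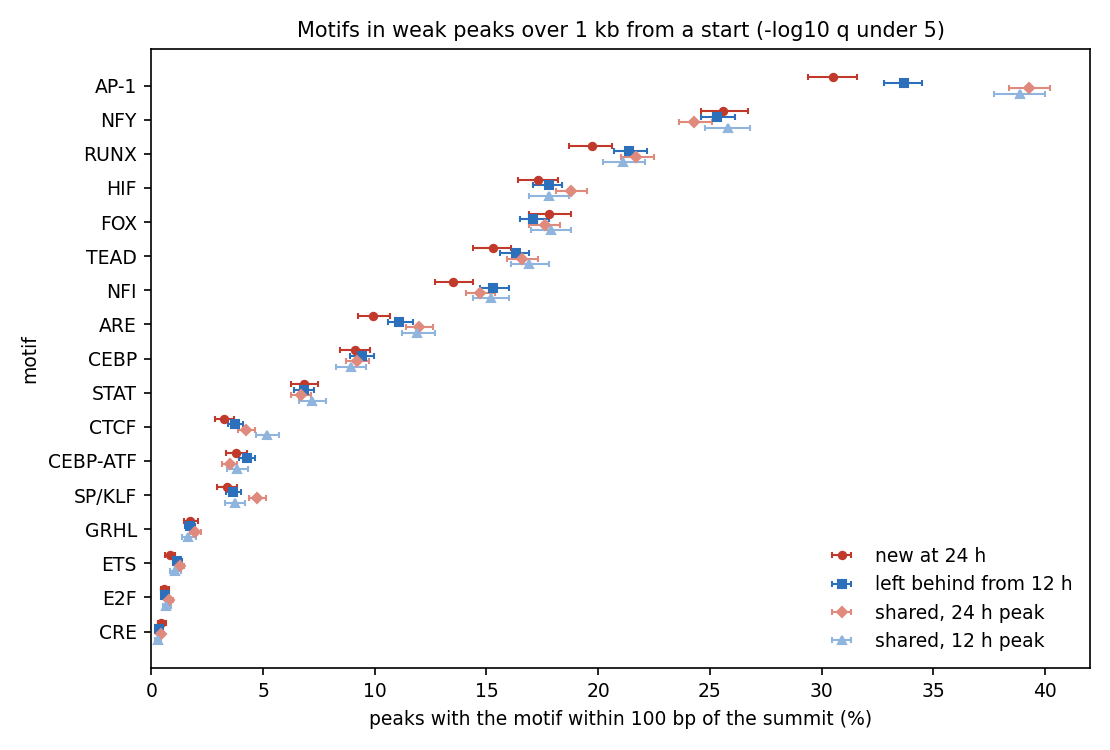
Share of peaks over 1 kb from a start with −log10 q under 5 (percent, x axis) that hold each motif (y axis) within 100 bp of the summit, with exact 95% binomial intervals, for the sets named in the key. AP-1 is at 30.5% in new, 33.7% in left-behind and 39.3% in shared 24 h peaks, while the HIF shares lie between 17.3% and 18.8%.

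Between shared peaks that were higher and lower at 24 h, the motif shares differed by a few points. STAT letters were in 8.69% (7.56 to 9.93) of higher and 6.14% (5.41 to 6.94) of lower pairs, and 6.42% of all pairs held them. NFY letters were in 27.0% (25.2 to 28.9) and 23.1% (21.8 to 24.5), and AP-1 letters in 46.3% (44.2 to 48.4) and 41.9% (40.3 to 43.5). HIF letters were in 21.0% and 23.0%, and in 19.4% of both once promoters were left out. Over all pairs, NFY, AP-1 and HIF letters were in 25.6%, 43.6% and 26.8%. Away from promoters STAT and NFY kept their order, with 8.73% against 6.43% and 27.5% against 22.9%. AP-1 letters were there in 49.0% (46.8 to 51.2) of higher and 45.8% (44.1 to 47.5) of lower pairs, with overlapping intervals, both below the 51.4% of all such pairs.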

How the data were processed

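Bulk ATAC-seq of fixed 4T1 cells was deposited as 7 lists of open-chromatin peaks, 1 per time. Per the labels and the methods of the study, the authors aligned reads to mm9 with Bowtie2 2.1.0, removed duplicates with Picard 1.79, merged the 2 samples of each time and called peaks with MACS2, with the shift set to 0, so summits sit on read pileups rather than on Tn5 cut centres. The deposited values are the fold enrichment of each summit over its local background (a ratio) and −log10 p and −log10 q values (the p-value and q-value of the summit). No scaling between lists was done. In every list the weakest peak had a −log10 q of 1.30 or 1.31, that is q = 0.05, which is looser than the threshold stated in the methods, and no further filter on problem regions was applied here. Total read numbers were not analysed here. The labels call the control normoxic, while the study describes control cells of its protein staining as kept in 5% oxygen.

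Unique intervals were compared, and any shared base was an overlap. When an interval had several summits, the one of highest −log10 q was used. Summit reads and background were solved from the deposited fold and p-value, and all summits gave a solution. The top lists were the 20000 peaks of highest fold enrichment, with 2 and 375 ties at the edge of the 12 h and 24 h lists ordered by −log10 q. Peaks were assigned to 70064 starts of 22238 protein-coding symbols of the GENCODE mouse annotation on NCBIM37 (mm9), and 1 symbol of the gene lists, Cebpd, had no entry there. Promoters were the 1 kb on either side of any start. Fold enrichment ratios of one-to-one pairs were centred on their median. Motif letters were searched in the genome sequence within 100 bp of the summit.

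The named peaks are the 10 strongest new and 10 strongest left-behind peaks by −log10 q, those of the top 20000 with no peak at the other time (at most 5 per time, by fold), the 8 largest rises and falls of shared peaks with at least 20 reads, all list genes with a promoter peak at 1 time only, and the 6 genes with most new or left-behind peaks. Other genes of the lists are named by their partnerless promoter peaks or a change of 1.5-fold, and 3 genes outside the lists with a promoter peak missing at 12 h alone and 4 of those missing at 24 h alone were picked after their values were seen. The peak sets, gene lists and motifs were chosen with earlier results of these data known. Scripts were checked on simulated data. Intervals came from scipy 1.17.1, tables from pandas 2.3.3 and numpy 2.4.6, sequences from pysam 0.24.0 and plots from matplotlib 3.10.9, under Python 3.11.15.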

Additional observations from a re-analysis of the deposited data

How the results depend on the processing

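No paired analysis was possible because each list pools both samples of its time and holds no value per sample, and for the same reason no sample could be left out. Of 66 summary values recomputed under alternatives, 29 moved by less than their counting interval or 1.5 times and 37 moved more; of 25 values for named peaks or genes, 24 stayed and 1 moved, Slc2a3, which had a promoter peak at both times (2 of 2) with 5 kb promoters.

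New peaks were 11.0% and 7.98% of the 24 h list with −log10 q of at least 2 and 5 in both lists, 13.0% with an overlap of 50% of the shorter peak and 15.4% with summits within 250 bp. Left-behind peaks were 23.2% of the 12 h list with −log10 q of at least 5, 24.6% with the 50% overlap and 25.9% by summits. Under alternatives chosen after seeing the data, new and left-behind shares were 16.2% and 17.3% with the 12 h list cut to the length of the 24 h list, 2.70% and 10.2% for peaks with −log10 q of at least 5 against the full other list, and 11.1% and 21.9% with no other peak within 500 bp. Among top lists they were 13.5% and 13.6% ranked by −log10 q, 24.9% and 24.9% with 10000 peaks, and 14.3% and 14.6% with 40000.

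Genes with a promoter peak at 1 time only numbered 290 (24 h) and 874 (12 h) with 5 kb promoters, and 884 at 24 h among the top 20000, where the 12 h count of 789 was the lower. Shared peaks 1.5-fold higher and lower numbered 828 and 1635 with −log10 q of at least 5, 7 and 61 among the top 20000, and 174 and 544 at 2-fold. Promoter shares of new and left-behind peaks were 7.0% and 9.57% with −log10 q of at least 5, 23.6% and 20.4% among the top 20000, 13.3% and 9.95% by summits, and 14.7% and 19.2% with 5 kb promoters; the new share was 7.23% with the 50% overlap. The order of new and left-behind promoter shares thus turned among the top lists and by summits, and the cause was not tested. Depth limits the weak peaks: with 7 or 8 reads at the weakest summits, an absent peak is one not called at that depth.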
